A study of Mus musculus with 6 samples.

Results

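The aryl hydrocarbon receptor (AHR) pathway was examined through 7 genes, Ahr, Arnt, Ahrr, Cyp1a1, Cyp1b1, Tiparp and Abcc4, in RNA from cultured mouse granulosa cells. Granulosa cells, which line the follicle around the oocyte and make estradiol, were taken by puncture of ovarian follicles. The 7 genes were found by symbol among the 27151 gene rows of the deposited table, and all 7 had a row. The set was selected on pathway membership with the FPKM differences between the same 6 libraries already known, among them that of Ahr. Their differences between the groups are therefore a description. Whether a member passed the threshold of a fit over all genes is stated as part of that description and is no independent evidence.

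There were 3 libraries of cells treated with GSK4112 and 3 control libraries. GSK4112 activates REV-ERBα, the product of Nr1d1, a heme-binding repressor of the circadian clock. Cells of both groups grew in serum for 24 h and went without it for 12 h. The treated cells then received the compound for a further 24 h and the control cells did not, and medium was renewed every 12 h. The labels name neither a vehicle for the control cells nor the strain or age of the mice. Separate animals or cultures behind the libraries are not stated either, so p-values measure a spread between samples that may be technical only. No dose is given here, since the labels state it in a unit that is not a concentration.

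AHR is a transcription factor of the bHLH-PAS family. Without a ligand it is held in the cytosol by HSP90, p23 and other chaperones, and with a ligand it enters the nucleus, pairs with ARNT and binds DNA at a short core, GCGTG. Genes induced in this way include Cyp1a1 and Cyp1b1, whose enzymes oxidise many AHR ligands, and Ahrr and Tiparp, whose products lower AHR activity. In the mouse ovary the receptor is known for a part in follicle growth and in the response of follicles to dioxins and polycyclic aromatic hydrocarbons.

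Because the response core is short, the DNA before the start of each gene is shown for the 4 members that stand for the repressor, both CYP1 enzymes and the transporter of the set. Windows of 250 bases before the annotated start, from RefSeq on GRCm38.p6, were found for 6 of the 7 members, all but Ahr, and Abcc4 had a second window at an inner start. Capitals mark GCGTG in the direction of the gene, or CACGC where the core lies on the other strand. The Ahrr window is chr13:74292332-74292581 and the Abcc4 window is chr14:118706220-118706469. The Cyp1b1 window is chr17:79715062-79715311 and the Cyp1a1 window is chr9:57697363-57697612. The strand is minus for Ahrr, Abcc4 and Cyp1b1 and plus for Cyp1a1, whose window lies inside the longer GENCODE gene, and each is written 5′ to 3′ in the direction of its gene.
Ahrr: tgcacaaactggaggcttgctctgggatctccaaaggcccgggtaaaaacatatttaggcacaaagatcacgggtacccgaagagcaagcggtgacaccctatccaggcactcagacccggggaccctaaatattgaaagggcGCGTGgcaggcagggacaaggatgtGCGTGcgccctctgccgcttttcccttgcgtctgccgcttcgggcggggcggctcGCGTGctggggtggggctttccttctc
Abcc4: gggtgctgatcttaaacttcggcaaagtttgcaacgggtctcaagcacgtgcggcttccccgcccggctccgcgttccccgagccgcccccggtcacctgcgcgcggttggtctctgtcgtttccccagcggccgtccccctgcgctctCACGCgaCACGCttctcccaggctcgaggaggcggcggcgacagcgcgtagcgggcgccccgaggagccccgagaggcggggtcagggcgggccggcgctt
Cyp1b1: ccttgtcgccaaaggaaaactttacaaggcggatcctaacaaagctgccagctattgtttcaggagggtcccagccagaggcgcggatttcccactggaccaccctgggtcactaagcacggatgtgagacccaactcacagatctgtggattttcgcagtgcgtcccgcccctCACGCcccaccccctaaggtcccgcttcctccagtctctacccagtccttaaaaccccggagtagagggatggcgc
Cyp1a1: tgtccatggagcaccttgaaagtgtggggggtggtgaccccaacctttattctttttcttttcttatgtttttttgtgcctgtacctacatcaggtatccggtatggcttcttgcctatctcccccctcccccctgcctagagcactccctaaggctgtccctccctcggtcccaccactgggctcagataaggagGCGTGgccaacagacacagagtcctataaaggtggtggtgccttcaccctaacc
The Ahrr window held 3 matches to GCGTG, whose first bases lie at positions -107, -82 and -27 from the start, and 2.77% of all windows held 3 or more. The outer Abcc4 window held 2, and Cyp1b1, Cyp1a1, Arnt and Tiparp held 1 each, while the inner Abcc4 window held 0. Of 32851 windows of this length over all genes, 28.2% held at least 1 match on either strand. The longer form TNGCGTG, which contains the core, was present in Ahrr and in the outer Abcc4 window and in 4.1% of all windows. Neither AGGTCA, the core bound by REV-ERB proteins, nor TAGGTCA, which contains it, was found in the windows of these 6 genes on either strand, against 14% and 2.23% of all windows. The outer windows of the members were 53.6 to 75.2% G or C, with a median of 52.4% over all windows. A match is a run of letters and not a shown binding site, and the letters say nothing of cores outside these windows.

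Values are FPKM, fragment numbers scaled to exon length and library size, so levels of different genes can be set beside each other per length. The libraries held 16559256 to 18158273 fragments. Both replicate 1 libraries stood apart: 10 mitosis genes summed to 107 FPKM in GSK4112 replicate 1 and 140 FPKM in control replicate 1, against 17.3 and 19.6 FPKM in the other GSK4112 libraries and 36.3 and 39.8 FPKM in the other control libraries. The granulosa markers Inha (1370 to 2240 FPKM over the 6 libraries) and Foxl2 (29.9 to 64.4 FPKM) were high, while Amh was at most 0.66 FPKM. The 10 granulosa markers summed to 2170 to 2920 FPKM with GSK4112 and to 2990 to 3640 FPKM in controls, groups that did not overlap. All 9 that passed the filter below had differences below 0. Without overlap were 4, Inhba, Cyp11a1, Fst and Hsd17b1, where 23.6% of all genes tested did not overlap. Inha, Foxl2, Nr5a1, Nr5a2 and Fshr overlapped between the groups. Of the 9, 2 were called, Fst and Hsd17b1, both lower with GSK4112, where 0.624% of all genes tested were called lower. All 10 mitosis genes had differences below 0, with 0 called without and 5 called lower with the replicate block described below, which called 3.82% of all genes lower. In bulk RNA, fewer cells of a type and less RNA per cell cannot be told apart. Of the markers of other cells, Cyp17a1 (theca) was at most 0.0555 FPKM, Pecam1 (endothelium) at most 0.223 FPKM and Ptprc (leukocytes) at most 0.0678 FPKM. Others of these lists were higher. Acta2 (44.5 to 234 FPKM) and Col1a1 (7.09 to 26.2 FPKM) are from the theca and stroma list. Lyz2 (4.29 to 34.2 FPKM) and Cd68 (2.2 to 5.69 FPKM) are from the leukocyte list. Upk1b and Krt19 (surface epithelium) reached 2.47 and 2.05 FPKM, and Zp3 (oocyte) reached 1.42 FPKM. The theca and stroma list of 10 genes summed to 74.6 to 144 FPKM with GSK4112 and 54.9 to 268 FPKM in controls, with the highest sum of each group in replicate 1, and the 7 leukocyte genes to 17 to 39.4 and 7.53 to 41.4 FPKM. The part of these sums in the results below was not tested.

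The receptor gene itself was lower with GSK4112. Ahr (chromosome 12, 35497974 to 35535038, minus strand, GRCm38) was at 9.45, 10.8 and 10.5 FPKM in GSK4112 replicates 1, 2 and 3, against 29.4, 32.3 and 42.7 FPKM in control replicates 1, 2 and 3. Every GSK4112 library lay well below every control library, and the GSK4112 values were close together while control replicate 3 was above the other controls. The means were 10.3 ± 0.717 FPKM with GSK4112 and 34.8 ± 7.02 FPKM in controls (SD, n = 3 each), a ratio of 0.295. On the log2(FPKM + 1) scale the difference, GSK4112 minus control, was -1.65 ± 0.145 (SE, limma). The values rest on 985 to 1125 fragments per GSK4112 library and 3286 to 4382 fragments per control library. In each replicate number the GSK4112 level was a like share of the control level, at 0.322, 0.335 and 0.246 for numbers 1, 2 and 3. No label says that these numbers pair the samples. The exons of Ahr share 2.06% of their bases with an antisense long noncoding RNA, Gm48236, which was at most 0.141 FPKM.

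**Figure D1:**
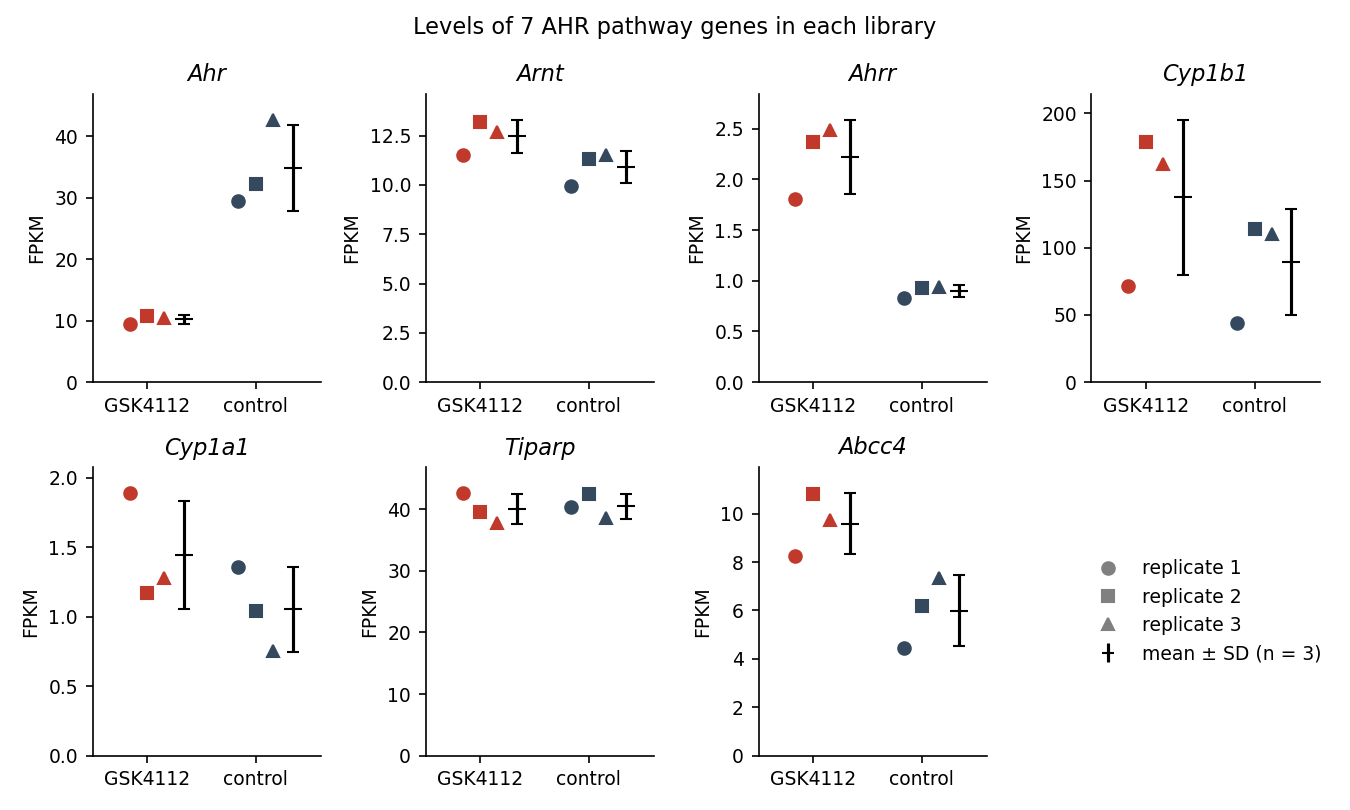
Each panel plots the FPKM of a gene (vertical axis, from 0) in the 3 GSK4112 and 3 control libraries, with the shape giving the replicate number and the bar the mean ± SD. Ahr is lower in all 3 GSK4112 libraries, Ahrr, Arnt and Abcc4 are higher without overlap, and Cyp1b1 is lowest in replicate 1 of both groups.

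Arnt (chromosome 3, 95434388 to 95497240, plus strand), which encodes the partner that AHR needs for DNA binding, differed little. It was at 11.5, 13.2 and 12.7 FPKM with GSK4112 and at 9.97, 11.3 and 11.5 FPKM in controls. The groups did not overlap, but the lowest GSK4112 value and the highest control value both round to 11.5 FPKM. The log2 difference was 0.18 ± 0.0912 (SE), and with median-of-ratios scaling it was 0.12. The level of Ahr relative to Arnt therefore differed between the groups more than Arnt did: the ratio of their FPKM values was 0.819, 0.821 and 0.83 with GSK4112, against 2.94, 2.87 and 3.72 in controls. Ahr was thus below its partner in all 3 GSK4112 libraries and above it in all 3 control libraries. Both genes differed without overlap and in opposite directions, so the ratios could not overlap. The gap between them is no further result. Relative to Arnt2, a paralog of Arnt, Ahr was at 0.473, 0.652 and 0.668 with GSK4112 and at 1.84, 1.63 and 2.37 in controls. Arnt2 itself differed little, so these ratios mostly restate the difference of Ahr.

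Ahrr (chromosome 13, 74211118 to 74292331, minus strand) encodes the AHR repressor, a bHLH-PAS protein that competes with AHR for ARNT and for the response core. It was low in all libraries, at 1.81, 2.37 and 2.49 FPKM with GSK4112 and at 0.834, 0.933 and 0.936 FPKM in controls. Every GSK4112 value was above every control value, and GSK4112 replicate 1 was the lowest of its group. The means were 2.23 ± 0.364 FPKM with GSK4112 and 0.901 ± 0.0578 FPKM in controls (SD, n = 3 each), a ratio of 2.47. The log2(FPKM + 1) difference was 0.76 ± 0.139 (SE) and understates the ratio at this level. Ahrr passed the filter on low values, a 6-library mean of 1 FPKM or more, only through its GSK4112 values. Counting error was small beside the difference: the exact Poisson 95% interval of the lowest GSK4112 value (289 fragments) was 1.61 to 2.03 FPKM, and that of the highest control value (147 fragments) was 0.791 to 1.1 FPKM. Such intervals cover counting error only and, with the filter passed in this way, are no evidence of a difference between the groups.

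With Ahr lower and Ahrr higher, the ratio of Ahr to Ahrr stood at 5.22, 4.56 and 4.21 with GSK4112 and at 35.2, 34.7 and 45.7 in controls. The lowest control ratio was several times the highest GSK4112 ratio. Neither gene overlapped between the groups and they differed in opposite directions, so their ratios could not overlap. The gap between the ratios is therefore no further result.

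**Figure D2:**
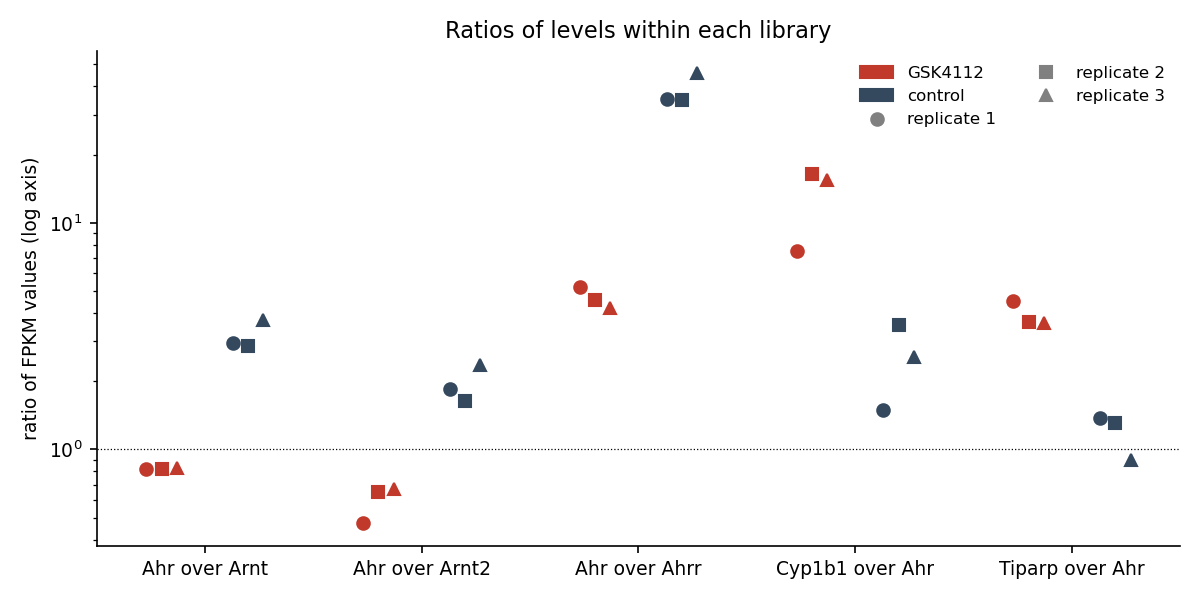
Points are ratios of the FPKM values of 2 genes within a library (vertical log axis), with GSK4112 left of control for each ratio and the shape giving the replicate number; the dotted line is a ratio of 1. Ahr over Arnt is 0.819 to 0.83 in GSK4112 libraries and 2.87 to 3.72 in control libraries, on opposite sides of 1. Each ratio holds Ahr and so restates its difference in whole or in part.

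Of the members that AHR is known to induce, none was called as lower, where 0.624% of all genes tested were. Nothing is read from that count. Cyp1a1 (chromosome 9, 57687928 to 57703824, plus strand), the standard readout of AHR activity, was near 1 FPKM: 1.89, 1.17 and 1.28 FPKM with GSK4112 and 1.36, 1.04 and 0.755 FPKM in controls. The groups overlapped, and the highest value of each was in replicate 1. The log2 difference was 0.25 ± 0.184 (SE), from 54 to 89 fragments per GSK4112 library and 35 to 69 per control library. The exact Poisson 95% intervals ran from 0.879 to 1.53 FPKM for the lowest GSK4112 library and from 1.06 to 1.73 FPKM for the highest control library, and so overlapped. Those of the highest GSK4112 library (1.52 to 2.32 FPKM) and the lowest control library (0.526 to 1.05 FPKM) did not. These libraries are the extremes of their groups, and nothing is read from that pair.

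Cyp1b1 (chromosome 17, 79701537 to 79715061, minus strand), whose enzyme hydroxylates estradiol as well as AHR ligands, was the most abundant of the 7. It was at 71.2, 179 and 162 FPKM with GSK4112 and at 44.1, 114 and 110 FPKM in controls. The groups overlapped, because replicate 1 was low in both, below every other library. The means were 137 ± 57.8 FPKM with GSK4112 and 89.5 ± 39.3 FPKM in controls (SD, n = 3 each), and the log2 difference was 0.63 ± 0.476 (SE). Within each replicate number GSK4112 was higher by a similar factor, 1.61, 1.56 and 1.48 for numbers 1, 2 and 3. No label says that the numbers pair the samples, so these factors and the block below rest on an assumed pairing. With the replicate number as a block, the same difference had an SE of 0.0895. Without control replicate 1 it was 0.18, and without GSK4112 replicate 1 it was 1.04. Relative to Ahr, Cyp1b1 stood at 7.53, 16.5 and 15.5 times its level with GSK4112 and at 1.5, 3.54 and 2.57 times in controls, without overlap. These ratios in part restate the lower Ahr values with GSK4112 and are no further result. Replicate 1 of each group, where Cyp1b1 was low, also held the high mitosis sums, and the part of that in its level was not tested.

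Tiparp (chromosome 3, 65528410 to 65555518, plus strand) encodes a mono-ADP-ribosyltransferase that is induced by AHR and acts back on it. It was at 42.6, 39.6 and 37.8 FPKM with GSK4112, against 40.3, 42.5 and 38.6 FPKM in controls. The groups lay on top of each other, and the log2 difference was -0.02 ± 0.0816 (SE). The sign changed to 0.02 without GSK4112 replicate 3 and without control replicate 2. An antisense pseudogene, 4931440P22Rik, overlaps 5.12% of the Tiparp exon bases, and its own level was at most 0.599 FPKM. Since the strand setting is not given in the sources used here, reads of the overlap cannot be assigned. Relative to the receptor, Tiparp stood at 4.5, 3.66 and 3.6 times the Ahr level with GSK4112 and at 1.37, 1.31 and 0.903 times in controls. With Tiparp alike in both groups, these ratios restate the difference of Ahr.

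Abcc4 (chromosome 14, 118482692 to 118706219, minus strand) encodes MRP4, a membrane pump that exports cyclic AMP, prostaglandins and conjugates, and its gene is reported to be inducible through AHR in human liver cells. It was at 8.25, 10.8 and 9.75 FPKM with GSK4112, against 4.44, 6.2 and 7.33 FPKM in controls. The groups did not overlap, and replicate 1 was the lowest library of each. The means were 9.58 ± 1.26 FPKM with GSK4112 and 5.99 ± 1.46 FPKM in controls (SD, n = 3 each), with a log2 difference of 0.61 ± 0.175 (SE). Within the replicate numbers, which no label gives as pairs, GSK4112 was 1.86, 1.73 and 1.33 times control.

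The order of the 7 levels differed between the groups in the places of Ahr and Arnt and of Ahrr and Cyp1a1. With GSK4112 the means ran from Cyp1b1 (137 FPKM) and Tiparp (40 FPKM) through Arnt (12.5 FPKM), Ahr (10.3 FPKM) and Abcc4 (9.58 FPKM) to Ahrr (2.23 FPKM) and Cyp1a1 (1.45 FPKM). Among these neighbours Ahr and Abcc4 overlapped in their libraries, as did Ahrr and Cyp1a1. In controls the order was Cyp1b1 (89.5 FPKM), Tiparp (40.5 FPKM), Ahr (34.8 FPKM), Arnt (10.9 FPKM), Abcc4 (5.99 FPKM), Cyp1a1 (1.05 FPKM) and Ahrr (0.901 FPKM). There the overlapping neighbours were Tiparp and Ahr, and Cyp1a1 and Ahrr.

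Across all genes, limma was run on log2(FPKM + 1), 2-sided, for the 12181 genes that passed the filter, and a gene was called at a Benjamini-Hochberg adjusted p under 0.05. It called 126 genes or 1.03%, 50 higher (0.41%) and 76 lower (0.624%) with GSK4112. With median-of-ratios scaling the split was 44 higher and 117 lower. Of the 7 members, which all passed the filter, Ahr was called as lower and 0 were called as higher. With the replicate block 4 were called, Ahr as lower and Ahrr, Cyp1b1 and Abcc4 as higher, where the block called 6.89% of all genes, 3.07% higher and 3.82% lower. Leaving out both replicate 1 libraries also called 4, beside 7.03% of all genes. Ahr and Ahrr were called by limma-voom on recovered fragments, beside 1.41% of all genes, and with sample weights, beside 6.81%. Ahrr entered these fits only through its GSK4112 values, so its calls are given for completeness. The GSK4112 and control values did not overlap in 4 of the 7, while 23.6% of all genes tested did not, 15.7% higher and 7.9% lower. The median log2 difference was 0.25 over the 7 members and 0.05 over all genes tested. The members were chosen with this comparison in view, and nothing is read from these counts.

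The call of Ahr was lost without GSK4112 replicate 2, GSK4112 replicate 3, control replicate 2 or control replicate 3, with log2 differences of -1.69, -1.67, -1.7 and -1.5 in that order. In the same 4 fits limma called 0, 0, 8 and 0 genes, while 1224, 1318, 1717 and 1843 genes had an unadjusted p under 0.05. Over the 17 alternatives Ahr was called in 13.

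**Figure D3:**
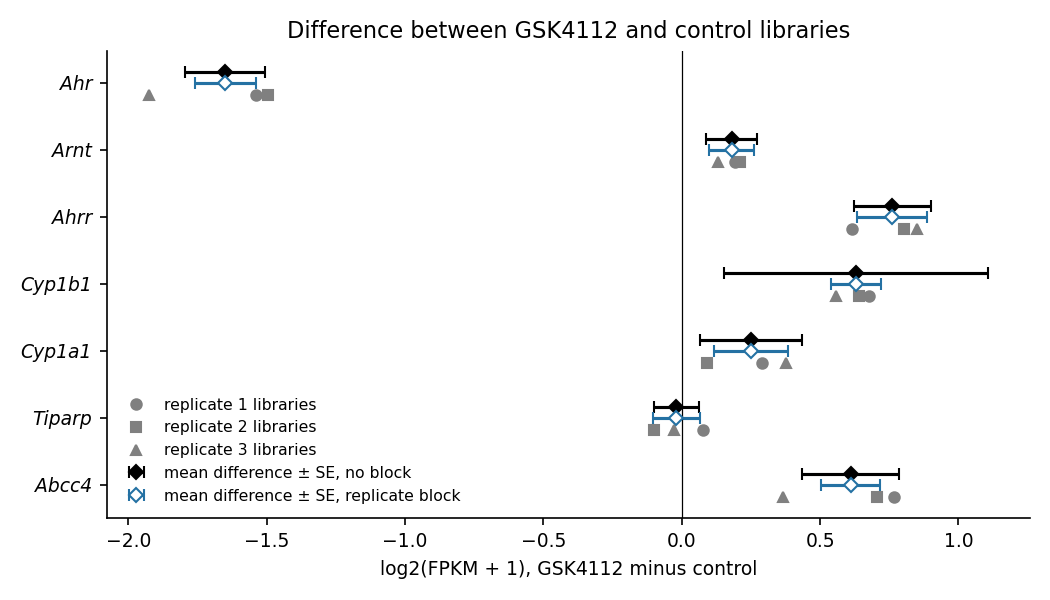
Horizontal positions are differences in log2(FPKM + 1), GSK4112 minus control, with black diamonds and bars for the mean ± SE without a block, open diamonds for the mean ± SE with the replicate block, and grey points for each replicate number. The SE of Cyp1b1 is 0.476 without and 0.0895 with the block, and the 3 grey points of Ahr lie below 0 while those of Tiparp lie on both sides of it.

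The rest of the pathway was read from 9 lists written by role, which held 90 further genes. Of these, 86 had a row in the table and 53 passed the filter. None of the 53 was called by limma, or by limma-voom on recovered fragments, where these called 1.03% and 1.41% of all genes. Counts of 0 are near these shares, and nothing is read from them here or in the lists below. An unadjusted p under 0.05 was found for 12 of the 53, against 2065 of all 12181 genes. With the replicate block 3 were called higher (Cdkn1b, Abcc5 and Parp3) and 1 lower (Epas1), a share near the 6.89% of all genes that the block called, so nothing is read from these 4 calls. Parp3 and Epas1 are named after their values were seen. The median log2 difference of the 53 was 0.07, against 0.05 over all genes tested, and 35 lay above 0 and 18 below.

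Among the proteins that hold the receptor in the cytosol, Hsp90ab1 was at 891 ± 32.4 FPKM with GSK4112 and 865 ± 33.1 FPKM in controls (SD, n = 3 each; limma adjusted p = 0.8714). Hsp90aa1, the inducible form of the chaperone, was at 232 ± 28.2 FPKM with GSK4112 and 255 ± 21.4 FPKM in controls (limma adjusted p = 0.5909). Ptges3, which encodes the co-chaperone p23 and is named outside the rule for its role in the complex, was at 62.7 ± 3.24 FPKM with GSK4112 and 63.8 ± 1.28 FPKM in controls. All 8 genes of the receptor complex passed the filter, with a median log2 difference of 0.01. Ahr was the single gene of the list that was called by limma, limma-voom or the block, Ahrr left aside. These fits called 1.03%, 1.41% and 6.89% of all genes. The difference of Ahr was known when the set was chosen, so nothing is read from this count.

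Of 10 classical AHR target genes in the table, 6 passed the filter and 0 were called by limma, beside 1.03% of all genes. Ahrr left aside, limma-voom called 0 and the block called Cyp1b1 as higher, where limma-voom called 1.41% of all genes and the block 3.07% higher. Nqo1, a quinone reductase that is also a target of NRF2, was at 12.8, 6.73 and 7.22 FPKM with GSK4112 and at 2.41, 5.26 and 2.79 FPKM in controls. Its groups did not overlap, with a log2 difference of 1.14 ± 0.302 (SE) and a limma adjusted p of 0.134. The gene of NRF2 itself, Nfe2l2, was at 41.1 ± 0.606 and 39.9 ± 5.62 FPKM (limma adjusted p = 0.8466). Aldh3a1, Ugt1a6a, Ugt1a6b and Gsta1, classical targets in liver, were below the filter, and the highest mean among them in either group was 0.207 FPKM.

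Of 13 other genes reported as AHR targets, 7 passed the filter, with a median log2 difference of -0.14. Of these 0 were called by limma or limma-voom, beside 1.03% and 1.41% of all genes. The block called 2 higher (Abcc4 and Cdkn1b), beside 3.07% of all genes, and nothing is read from this count. Cdkn1b, the cell cycle inhibitor p27, was at 73.3, 196 and 171 FPKM with GSK4112 and at 40.2, 138 and 129 FPKM in controls. Like Cyp1b1 it was lowest in replicate 1 of both groups, and its limma adjusted p was 0.6361 without and 0.03967 with the block. Its log2 difference was 0.59, and it ran from 0.02 without control replicate 1 to 1.02 without GSK4112 replicate 1. Without both replicate 1 libraries the difference was 0.45, and with the block as well it was not called (limma adjusted p = 0.1197). Hes1, a Notch target, was at 7.32, 48.5 and 53.8 FPKM with GSK4112 and at 7.49, 63.7 and 60.4 FPKM in controls, so that replicate 1 differed from the others far more than the groups did. Fgf21, a secreted metabolic hormone, had 16, 5 and 6 fragments in GSK4112 replicates 1, 2 and 3 and 0 fragments in each control library, and was chosen after its values were seen. Of its 27 GSK4112 fragments 16 were in replicate 1. Fgf21 stood below 1 FPKM in every library, was below the filter and was not tested, so no fold is given.

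Among 8 genes reported to depend on AHR in the mouse ovary, 6 passed the filter, with a median log2 difference of 0.05. Of these 0 were called by limma, limma-voom or the block, which called 1.03%, 1.41% and 6.89% of all genes. Esr2, the estrogen receptor of granulosa cells, was at 21 ± 1.67 FPKM with GSK4112 and 30.1 ± 3.93 FPKM in controls, without overlap (limma adjusted p = 0.1077). Of the 6 genes 3 did not overlap, where 23.6% of all genes tested did not. The others were Lhcgr and Bax, named after their values were seen and both higher with GSK4112. Their log2 differences were 1.12 and 0.35 (limma adjusted p = 0.2853 and 0.1141). Nothing is read from this count. Cdk4, a cell cycle kinase, was at 122 ± 9.44 and 122 ± 12.2 FPKM (limma adjusted p = 0.9826). The aromatase gene Cyp19a1 and the estrogen receptor gene Esr1 were below the filter.

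None of 14 coregulators and partners of AHR was called by limma, limma-voom or the block, beside 1.03%, 1.41% and 6.89% of all genes. Of the 14, 11 lay above 0, with a median log2 difference of 0.16. The most abundant were Smarca4, the motor of the BAF remodelling complex (49.7 ± 1.95 FPKM with GSK4112 and 49.9 ± 5.65 FPKM in controls), and Klf6, which can pair with AHR (35.9 ± 15.5 and 37.1 ± 15 FPKM). Their limma adjusted p-values were 0.9986 and 0.9551. Of 11 tryptophan enzymes that lead to AHR ligands, 1 passed the filter, Kyat1 (4.99 ± 0.0474 FPKM with GSK4112 and 4.39 ± 0.19 FPKM in controls, limma adjusted p = 0.405). Ido1, Ido2, Tdo2 and Il4i1, which start the breakdown of tryptophan toward such ligands, averaged at most 0.0646 FPKM in either group.

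In the bHLH-PAS family, to which AHR, AHRR and ARNT belong, 8 of 14 members in the table passed the filter, with a median log2 difference of 0.01. Ahrr left aside, Ahr was the single call by limma and by limma-voom, beside 1.03% and 1.41% of all genes. As Ahr was chosen with its difference known, nothing is read from this count. The block added Epas1 as lower, where it called 3.82% of all genes lower. Hif1a, the oxygen-sensing partner of ARNT, was at 51.6 ± 3.19 FPKM with GSK4112 and 42.1 ± 12.9 FPKM in controls (limma adjusted p = 0.4855). Arnt2 was at 17.4 ± 2.26 and 17.9 ± 1.91 FPKM (limma adjusted p = 0.8967), and its difference was above 0 in 2 of the 17 alternative fits. Epas1, the related HIF subunit, was at 3.12, 1.68 and 1.6 FPKM with GSK4112 and at 6.37, 2.31 and 3.43 FPKM in controls, highest in replicate 1 of each group (limma adjusted p = 0.3771 without and 0.04835 with the block).

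**Figure D4:**
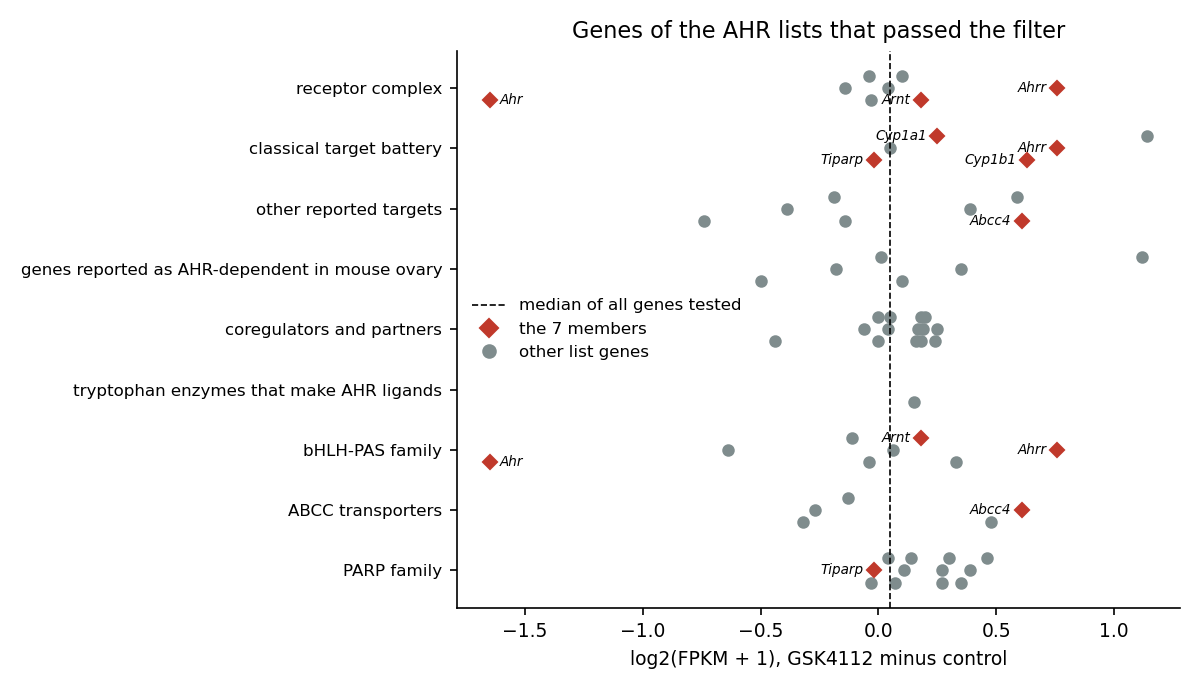
Each point is a gene that passed the filter, placed by its difference in log2(FPKM + 1), GSK4112 minus control, in the row of its list; diamonds are the 7 members and the dashed line is the median of all genes tested, 0.05. Ahr at -1.65 lies apart from the 53 other genes of the lists.

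The genes most like Ahr across the 6 libraries were found by the root-mean-square distance between centred log2(FPKM + 1) profiles, over 7494 candidates, named genes that averaged 5 FPKM or more. Fst, the gene of follistatin, which binds activins, was nearest at a distance of 0.0808, where the standard deviation of Ahr itself was 0.924. It was at 24 ± 2.38 FPKM with GSK4112 and 73.6 ± 15.4 FPKM in controls (SD, n = 3 each). Also among the nearest were Gem, a small GTPase (0.19), Smtnl2, a smoothelin-like protein (0.227), and Itga2, a collagen receptor subunit (0.242). These genes were picked for a profile like that of Ahr, so that their lower GSK4112 values are no further result. Nearest to Ahrr were Npc1 (0.0662), a lysosomal cholesterol exporter that was at 15.5 ± 1.3 and 9.24 ± 0.602 FPKM, and Polr3g (0.0682), an RNA polymerase III subunit. Nearest to Cyp1b1 were Usp3 (0.0953), a deubiquitinase, at 48.3 ± 20.1 and 33.7 ± 13.2 FPKM, and Olfm1 (0.113). Nearest to Abcc4 were Cobll1 (0.0513) and Gabbr1 (0.0631). For the members that differed least, the nearest genes were Wdr48 (0.0237) and Maco1 (0.0241) for Arnt, Abhd16a (0.0497) and Triap1 (0.0525) for Cyp1a1, and Daxx (0.0245) and Rad21 (0.0269) for Tiparp.

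**Figure D5:**
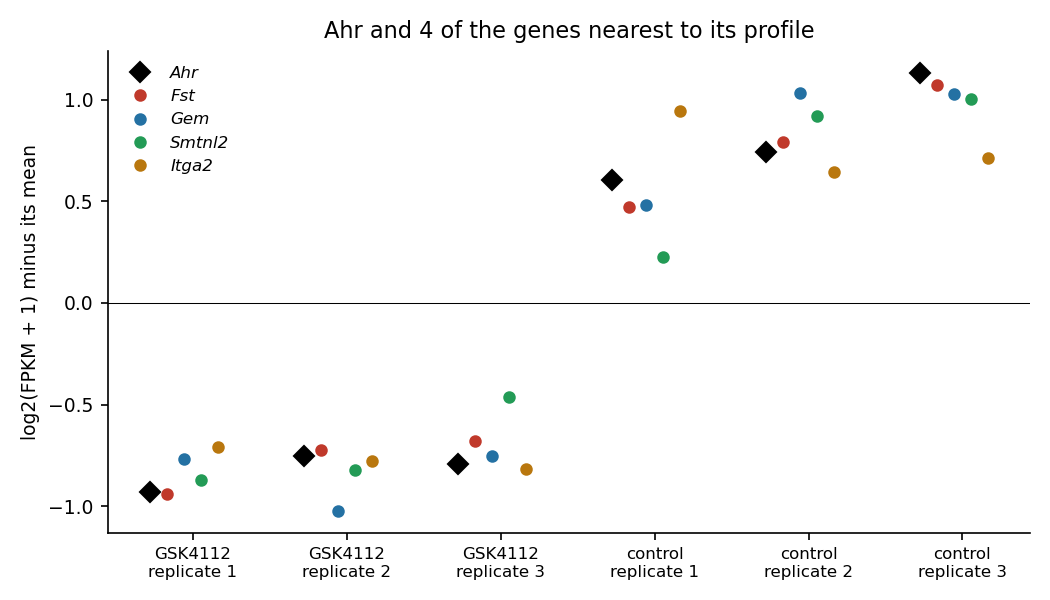
Points are log2(FPKM + 1) minus the mean of each gene over the 6 libraries (vertical axis), for Ahr and 4 of the genes nearest to it, in the 3 GSK4112 and 3 control libraries. All lie below 0 in the GSK4112 libraries and above 0 in the control libraries, and Ahr and Fst are both highest in control replicate 3.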

How the data were processed

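RNA from 6 libraries of cultured mouse granulosa cells, 3 with GSK4112 and 3 controls, was analysed from a table of FPKM values that the authors deposited for 27151 Ensembl gene IDs, per the file headers; groups and replicate numbers came from the sample titles. The submitters' processing notes give GRCm38 as the build. No aligner, counter, annotation release or strand setting is named in the sources used here. The labels' protocols describe treatment in culture, while the design text speaks of treatment in vivo.

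Symbols and exon lengths came from GENCODE M21 (27098 IDs found, 53 not). FPKM times exon length gave steps from which library totals were read, and 92.8 to 93.1% of values below 500 fragments came out whole within 0.01. Those of Cyp1b1 and Abcc4 did not, so their fragment numbers are approximate. The 12181 genes that averaged 1 FPKM or more were put on the log2(FPKM + 1) scale and fitted by limma 3.58.1 (R 4.3.3), with a variance trend and no block. The fit was first run on simulated data in which libraries of a group differed only by independent noise. That check does not cover libraries that stand apart, as both replicate 1 libraries did. Fold changes on this scale understate those of low genes. No member matched transcripts of another gene at 95% identity over 100 bases or more (blastn 2.17.0).

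Replicate numbers 1 to 3 occur in both groups, and no label says that they pair the samples. Deviations of same-numbered libraries from their group means correlated at 0.665, 0.326 and 0.213, over the limit of 0.1, but GSK4112 replicate 2 correlated better with control replicate 3 (0.53) and GSK4112 replicate 3 with control replicate 2 (0.357). The replicate block was an alternative. The others were pseudocounts, filters, scalings, sample weights, limma-voom on recovered fragments and leaving libraries out. Named were all members, and from each list up to 3 called rises and falls, or else the 2 most abundant genes; 1 gene with a profile like that of Ahr and 1 of the receptor complex are not reported here. Members and lists were chosen with earlier results of these data known.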

Additional observations from a re-analysis of the deposited data

How the results depend on the processing

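Of the 7 members 1 was called without a block, and 2 were with sample weights and 2 with limma-voom on recovered fragments. The count was 4 with the replicate block, 4 without both replicate 1 libraries, and 4 with the block as well. With a single replicate left out the count ran from 0 to 1. Each count above 1 includes Ahrr, which entered these fits only through its GSK4112 values. Over all genes 126 were called, against 26 without a filter, 830 with sample weights, 839 with the replicate block, 856 without both replicate 1 libraries, 1139 with the block as well, and 0 to 153 with a single replicate left out. Of the 53 other genes of the lists 0 were called, against 4 with sample weights, 4 with the replicate block, 3 without both replicate 1 libraries, 4 with the block as well, and 0 to 0 with a single replicate left out. The cause of these shifts was not tested. Over the 17 alternatives the log2 difference ran from -1.76 to -1.5 for Ahr, 0.7 to 1.29 for Ahrr, 0.44 to 0.75 for Abcc4, 0.18 to 1.04 for Cyp1b1, 0.13 to 0.46 for Cyp1a1, 0.12 to 0.23 for Arnt and -0.08 to 0.02 for Tiparp. The highest values of Ahrr and Cyp1a1 were those of limma-voom, which is not on the log2(FPKM + 1) scale. On that scale they were at most 0.85 and 0.36. For Cyp1b1 the lowest value was without control replicate 1 and the highest without GSK4112 replicate 1. Cyp1a1 and Ahrr have no value at a mean FPKM of at least 5, since they are below it. Depth limits Cyp1a1 most, with 35 to 89 fragments per library.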

Other observations

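Among the ABCC transporters other than Abcc4 that passed the filter, 1 had a log2 difference above 0 and 3 below. Abcc5, an exporter of cyclic nucleotides, was at 17.4, 20.7 and 18.4 FPKM with GSK4112 and at 13.4, 12.5 and 13.6 FPKM in controls, without overlap (log2 difference 0.48, limma adjusted p = 0.06764 without and 0.03989 with the block). Abcc1, a broad exporter of conjugates, was at 4.85 ± 0.494 FPKM with GSK4112 and 6.09 ± 1.3 FPKM in controls (limma adjusted p = 0.4146). Of 10 genes of the family in the table, 5 passed the filter. Of these, limma and limma-voom called 0, beside 1.03% and 1.41% of all genes. The block called 2 higher (Abcc4 and Abcc5), beside 3.07% of all genes, and nothing is read from this count. Whether Abcc4 differed from its relatives was not tested.

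In the PARP family, to which Tiparp belongs, 12 of 13 genes passed the filter. Of these, limma and limma-voom called 0, beside 1.03% and 1.41% of all genes, and nothing is read from that. The block called 1 higher, beside 3.07% of all genes. That was Parp3, a DNA repair enzyme named after its values were seen, at 9.98, 11.7 and 11.2 FPKM with GSK4112 and at 7.98, 7.3 and 7.77 FPKM in controls (limma adjusted p = 0.07425 without and 0.04501 with the block). Parp1, the main nuclear enzyme, was at 49.6 ± 2.92 FPKM with GSK4112 and 41.1 ± 3.36 FPKM in controls (limma adjusted p = 0.2197), and Parp2 at 20.7 ± 1.44 and 19.6 ± 0.866 FPKM (0.7025).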
